A study of Mus musculus with 6 samples.

Results

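The genes described here are those of de novo lipogenesis, the synthesis of fatty acids from carbohydrate or acetate, together with their transcription factors. They were chosen by gene symbol, and 10 of the 56884 genes in the tables were members: the enzymes *Acly*, *Acaca*, *Acacb*, *Fasn*, *Scd1*, *Scd2* and *Me1*, the transcription factors *Srebf1* and *Mlxipl*, and *Thrsp*. RNA was sequenced from immortalized stromal vascular fraction (SVF) cells of mouse subcutaneous white adipose tissue (scWAT) that overexpressed HA-tagged mouse PPARγ2 with a substitution of the lysine K382. PPARγ2 is the adipocyte form of the nuclear receptor that drives adipogenesis. In K382Q the lysine is replaced by glutamine, which mimics its acetylated state, and in K382R by arginine, which mimics its deacetylated state. There were 3 libraries of K382Q and 3 of K382R. Both groups were retrovirally transduced, selected with puromycin, and taken at day 2 of beige adipocyte differentiation. Both had received the same induction medium, with the PPARγ agonist rosiglitazone at 0.5 μM, insulin at 5 μg/mL, dexamethasone at 2 μg/mL, T3 at 1 nM, indomethacin at 125 μM and isobutylmethylxanthine at 500 μM. Each mutant was thus expressed from a retroviral vector in selected cells that kept their own *Pparg*, and cells with wild-type PPARγ2 were not analysed here. The comparison asks how the lipogenic genes differed when K382 mimicked the acetylated or the deacetylated state.

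In lipogenesis, ATP citrate lyase (*Acly*) splits cytosolic citrate into acetyl-CoA and oxaloacetate. The acetyl-CoA carboxylases make malonyl-CoA from it. *Acaca* encodes the cytosolic carboxylase, whose malonyl-CoA is the substrate of fatty acid synthase (*Fasn*), and *Acacb* encodes the carboxylase at the mitochondrial outer membrane, whose malonyl-CoA restrains fatty acid import for oxidation. Malic enzyme (*Me1*) supplies NADPH, and the stearoyl-CoA desaturases (*Scd1*, *Scd2*) turn saturated into monounsaturated fatty acids. SREBP1 (*Srebf1*), which responds to insulin, and ChREBP (*Mlxipl*), which responds to glucose metabolites, activate many of these genes. *Thrsp* encodes Spot 14, a small protein whose gene is induced by thyroid hormone and carbohydrate. In adipose tissue the pathway makes fatty acids for storage, and in brown and beige fat it is active beside fatty acid oxidation.

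The libraries held 5.95 to 7.50 Gb of aligned bases in K382Q and 6.53 to 8.15 Gb in K382R. No pair of libraries was a copy of another. Levels are given as TPM, the usual length-corrected unit of transcript abundance, which show shares of the RNA of a library, not amounts per cell. The markers of the labelled cell type were present in every library, *Fabp4* (47893 ± 2099 and 37837 ± 617 TPM, SD, n = 3 each) and *Plin1* (447 ± 9.55 and 462 ± 6.60 TPM) among them, and *Lep* was listed at 0 in all 6. The summed level of the 14 adipocyte markers was 54386 to 57934 TPM in K382Q and 45356 to 46508 TPM in K382R. Of the 13 that were tested, 4 were higher and 5 lower, where limma (adjusted p-value under 0.05) called 11.1% of all tested genes higher and 36.9% lower. Median-ratio scaling called 6 of the 13 higher and 4 lower, beside 3064 and 3148 of all 15421 genes. *Adipoq*, which encodes adiponectin, was among the lower ones at 148 ± 1.20 and 360.0 ± 20.2 TPM, and *Cfd*, which encodes adipsin, among the higher ones at 485 ± 18.7 and 206 ± 7.22 TPM, both also under the 3 other scalings. The 9 preadipocyte and fibroblast markers summed to 1299 to 1349 TPM in K382Q and 1541 to 1598 TPM in K382R. Of the 7 tested, 6 were lower (5 with median-ratio scaling) and *Vim* was higher. The part of these marker differences in the lipogenic genes was not tested, and in bulk RNA a smaller number of cells of a type and less RNA per cell cannot be told apart. Leukocyte markers summed to 11.1 to 12.6 TPM in K382Q and 12.6 to 15.7 TPM in K382R, with *Adgre1* and *Cd3e* at 0 in all libraries. Most of that sum was *Cd14*, at 7.64 ± 0.606 and 9.64 ± 0.772 TPM, and *Cd68*, at 4.08 ± 0.614 and 4.14 ± 0.967 TPM. *Cd14* was called lower in TPM (limma adjusted p-value 0.0203) but not with median-ratio scaling (limma adjusted p-value 0.152). Hepatocyte markers, of the other tissue known for lipogenesis, summed to 1.28 to 1.80 TPM in K382Q and 0.256 to 0.985 TPM in K382R, with *Ttr* and *Serpina1a* at 0. *Alb* was at 0.634 ± 0.152 TPM in K382Q and 0.0138 ± 0.0238 TPM in K382R and missed the filter in TPM. With median-ratio scaling it was tested and called higher (log2 fold change 1.18, limma adjusted p-value 0.00355). *Apoa1* did not pass the test, at 0.920 ± 0.117 and 0.562 ± 0.378 TPM (limma adjusted p-value 0.184). Endothelial markers lay between 1.60 and 2.25 TPM in K382Q and between 1.71 and 1.94 TPM in K382R, and epithelial markers at 0.117 to 0.198 and 0.704 to 1.07 TPM. Reads of the transgene and of *Pparg* itself cannot be told apart in the tables, and *Pparg* stood at 1200.3 ± 119 TPM in K382Q and 1611 ± 21.1 TPM in K382R.

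All 10 lipogenic genes passed the filter on low values. K382Q cells had higher levels of 6 of them and lower levels of 3, and *Srebf1* did not pass the test. The 6 higher genes were both desaturases, *Acacb*, *Me1*, *Mlxipl* and *Thrsp*. The 3 lower ones were *Acly*, *Acaca* and *Fasn*, which catalyse the steps from citrate to palmitate, but *Acaca* turned higher, without passing the test, when libraries were scaled by median ratios or by quantiles. *Fasn* did not pass the test under either scaling, and the count of lower members was 1 with each. *Srebf1* passed it as higher with median ratios. A gene was called at a Benjamini-Hochberg adjusted p-value of limma under 0.05 over the 15426 genes tested. That threshold was passed by 48.1% of all tested genes, by 11.1% as higher in K382Q and by 36.9% as lower. The 9 called members were also those whose 3 K382Q and 3 K382R libraries did not overlap, which held for 57% of all tested genes. With a fold change over 2 added, *Acacb* and *Thrsp* passed, against 3.88% of all tested genes.

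The median log2 fold change of the 10 members was 0.54, beside -0.14 over all tested genes. That median over all genes moved to 0.0039 when TPM were scaled by median ratios, and the share of called genes that were higher moved from 23.2% to 49.3%. Small differences therefore depended on the scaling, and the log2 fold changes of *Acly*, *Fasn*, *Acaca* and *Srebf1* are also given relative to the median gene.

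**Figure D1:**
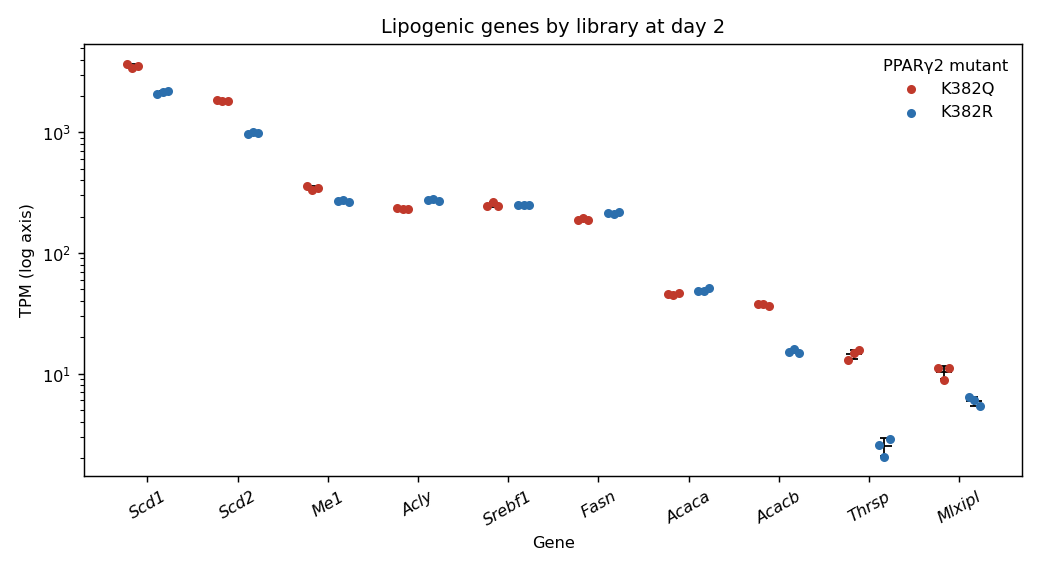
TPM of the 10 lipogenic genes (log axis) in each of the 3 K382Q and 3 K382R libraries at day 2, ordered by mean level, with black bars for the mean ± SD that are hidden where they are shorter than the points. The desaturases stand above all other members in every library, *Srebf1* overlaps between the groups, and *Thrsp* shows the widest gap.

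The desaturases carried most of the RNA of the group. *Scd1* stood at 3715, 3425 and 3538 TPM in the K382Q libraries 1 to 3 and at 2092, 2168 and 2190.3 TPM in the K382R libraries. Every K382Q library was above every K382R library, and *Scd1* ranked 20 by mean level among the 15426 tested genes. The means were 3559.6 ± 146 and 2149.9 ± 51.5 TPM (SD, n = 3 each), with a log2 fold change of 0.73 (SE 0.0387, 95% interval 0.64 to 0.82) and a limma adjusted p-value of 5.88e-06. Quantile normalization gave a smaller log2 fold change for *Scd1*, 0.47 (adjusted p-value 0.000383). *Scd2*, the isoform that is prominent in brain and in developing fat cells, stood at 1859, 1829 and 1806 TPM in K382Q and at 974, 1009 and 998 TPM in K382R. Its libraries did not overlap either. *Scd2* had a log2 fold change of 0.88 (SE 0.0280, 95% interval 0.82 to 0.95, limma adjusted p-value 6.92e-07). *Scd1* (chr19:44382894-44396318, minus strand) and *Scd2* (chr19:44282113-44295303, plus strand, GRCm39) are neighbouring paralogs, and reads shared between them could be assigned to either.

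Together, the 10 genes summed to 6521 ± 171 TPM in K382Q and 4227 ± 66.0 TPM in K382R. *Scd1* and *Scd2* made up 82.7% ± 0.371 of that sum in K382Q and 74.4% ± 0.460 in K382R. The sum thus followed the desaturases and not the enzymes that make palmitate. The ratio of *Scd1* to *Scd2* within a library, which a common factor per library cannot alter, was 2.00, 1.87 and 1.96 in K382Q and 2.15, 2.15 and 2.196 in K382R. All 3 K382Q ratios were below the K382R ratios. The difference was -0.16 on the log2 scale, with a two-sided exact permutation p of 0.1, the smallest that 3 against 3 libraries allow, and 0.133 adjusted over the 4 ratios tested.

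The pathway from citrate to palmitate was slightly lower in K382Q in TPM. *Acly* stood at 238, 229.8 and 231 TPM in K382Q and at 276, 282 and 272 TPM in K382R, without overlap. Its log2 fold change was -0.25 (SE 0.0288, 95% interval -0.32 to -0.18, limma adjusted p-value 0.000277), or -0.11 relative to the median gene. *Acly* was called lower in all 18 alternatives of processing. *Fasn* stood at 189, 194 and 189 TPM in K382Q and at 213, 212 and 217 TPM in K382R. The K382Q libraries were again all below the K382R libraries. The log2 fold change of *Fasn* was -0.16 (SE 0.0275, 95% interval -0.23 to -0.10, limma adjusted p-value 0.0018), but -0.03 relative to the median gene, and with median-ratio scaling it was -0.01 with an adjusted p-value of 0.781.

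*Acaca* stood at 46.0, 44.7 and 46.5 TPM in K382Q and at 48.4, 48.7 and 50.9 TPM in K382R. The gap between the highest K382Q and the lowest K382R library was narrow. Its log2 fold change of -0.11 (SE 0.0383, 95% interval -0.20 to -0.02) passed limma with an adjusted p-value of 0.0487, but was 0.03 relative to the median gene. The call was lost on leaving out any 1 of the 6 libraries, with log2 fold changes from -0.12 to -0.09 and adjusted p-values from 0.0736 to 0.157, and the value was 0.04 with median-ratio scaling. *Acly*, *Acaca* and *Fasn*, which all lie on chromosome 11 (chr11:100367179-100418826, chr11:84020498-84292477 and chr11:120696672-120715373), summed to 469.6 ± 3.53 TPM in K382Q and 540.0 ± 2.05 TPM in K382R. The ratio of *Fasn* to *Acaca* within a library was 4.17 ± 0.152 in K382Q and 4.33 ± 0.0748 in K382R. The ratios of the groups overlapped, and the log2 difference of -0.05 had an exact permutation p of 0.2 (0.2 adjusted). The size of this ratio depends on the measure, since gene coverage gave 23.8% to 25.0% of the deposited TPM for *Acaca* and 90.1% to 91.0% for *Fasn*, and its log2 difference was -0.05 by coverage too.

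The other carboxylase, *Acacb* (chr5:114284596-114388822), was higher in K382Q. *Acacb* stood at 38.1, 37.9 and 36.1 TPM in K382Q and at 15.2, 15.8 and 14.9 TPM in K382R. The lowest K382Q library was far above the highest K382R library. The mean in K382Q was 2.44 times that in K382R, with a log2 fold change of 1.26 (SE 0.0474, 95% interval 1.15 to 1.37, limma adjusted p-value 1.37e-06). Its log2 fold change lay at percentile 99.3 of all tested genes. The ratio of *Acaca* to *Acacb* was 1.21, 1.18 and 1.29 in the K382Q libraries and 3.18, 3.07 and 3.41 in the K382R libraries. The 2 groups of ratios lay far apart, with a log2 difference of -1.40 and an exact permutation p of 0.1 (0.133 adjusted). *Acacb* made up 23.7% ± 0.965 of the TPM of both carboxylases in K382R and 45.0% ± 1.10 in K382Q. Their sum was 64.7 ± 1.10 and 83.1 ± 0.871 TPM, respectively, so that the total was not lower in K382Q although *Acaca* was in TPM. Which carboxylase had the higher level in K382Q depended on the measure. The TPM of a gene are summed over its transcripts, and with the mean coverage of the whole gene in their place *Acacb* had 61.9% ± 1.12 in K382Q and 36.7% ± 0.605 in K382R.

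*Me1* (chr9:86463424-86578006), the NADPH source among the members, was moderately higher. Its libraries stood at 358, 334 and 344 TPM in K382Q and at 272, 274 and 263 TPM in K382R, without overlap. The K382Q mean of *Me1* was higher by a log2 fold change of 0.36 (SE 0.0338, 95% interval 0.28 to 0.43, limma adjusted p-value 0.000101).

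**Figure D2:**
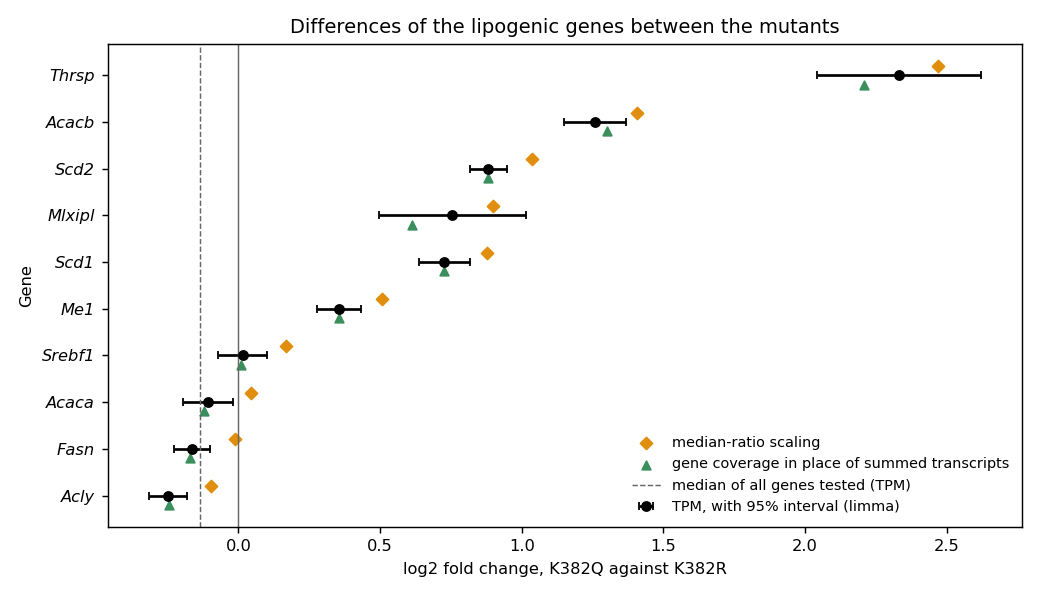
log2 fold change of each lipogenic gene, K382Q against K382R: black points with the 95% interval of limma on TPM, orange diamonds with median-ratio scaling, green triangles with gene coverage in place of TPM summed over transcripts. *Thrsp*, *Acacb*, *Scd2*, *Mlxipl*, *Scd1* and *Me1* are above 0 in all 3 settings, *Acly* and *Fasn* are below 0 in all 3, and *Acaca* changes sign with median-ratio scaling, which moves the values upwards.

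The transcription factors differed from each other. *Srebf1* (chr11:60089915-60113407) stood at 247, 267 and 245 TPM in K382Q and at 251, 250.3 and 249 TPM in K382R. The K382R libraries lay inside the K382Q range. The log2 fold change of *Srebf1* was 0.02 (SE 0.0373, 95% interval -0.07 to 0.10, limma adjusted p-value 0.765), and the interval spans both directions. Relative to the median gene it was 0.15. With median-ratio scaling *Srebf1* was at 0.17 with an adjusted p-value of 0.0156. The transcripts for SREBP1a and SREBP1c were not separated, and neither was the processing of the protein, which controls its activity, measured. *Mlxipl* (chr5:135118744-135167236) was at a low level, 11.1, 8.82 and 11.1 TPM in K382Q and 6.35, 6.03 and 5.34 TPM in K382R. All K382Q libraries were above all K382R libraries, although library 2 of K382Q was closer to them than the others. The log2 fold change of *Mlxipl* was 0.75 (SE 0.111, 95% interval 0.50 to 1.01, limma adjusted p-value 0.000935), and its coverage was 3.55 to 7.21 reads per base. The isoforms ChREBPα and ChREBPβ were not separated either. The ratio of *Srebf1* to *Mlxipl* was 22.2, 30.3 and 22.1 in K382Q and 39.5, 41.5 and 46.6 in K382R. The ratios did not overlap, with a log2 difference of -0.79 and an exact permutation p of 0.1 (0.133 adjusted). Gene coverage gave 69.6% to 70.5% of the TPM for *Srebf1* and 25.6% to 27.1% for *Mlxipl*, so that the ratios themselves are larger by coverage, with a log2 difference of -0.75.

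*Thrsp* (chr7:97062145-97066937) had the largest fold change of the 10 members. It stood at 13.0, 14.9 and 15.5 TPM in K382Q and at 2.55, 2.04 and 2.87 TPM in K382R. The groups were far apart. In K382Q *Thrsp* was near the level of *Acacb* in K382R, and in K382R under that of every enzyme. The K382Q mean was 5.82 times the K382R mean, with a log2 fold change of 2.33 (SE 0.124, 95% interval 2.04 to 2.62, limma adjusted p-value 5.88e-06), at percentile 99.9 of all tested genes. The coverage of *Thrsp* was 3.81 to 26.8 reads per base.

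**Figure D3:**
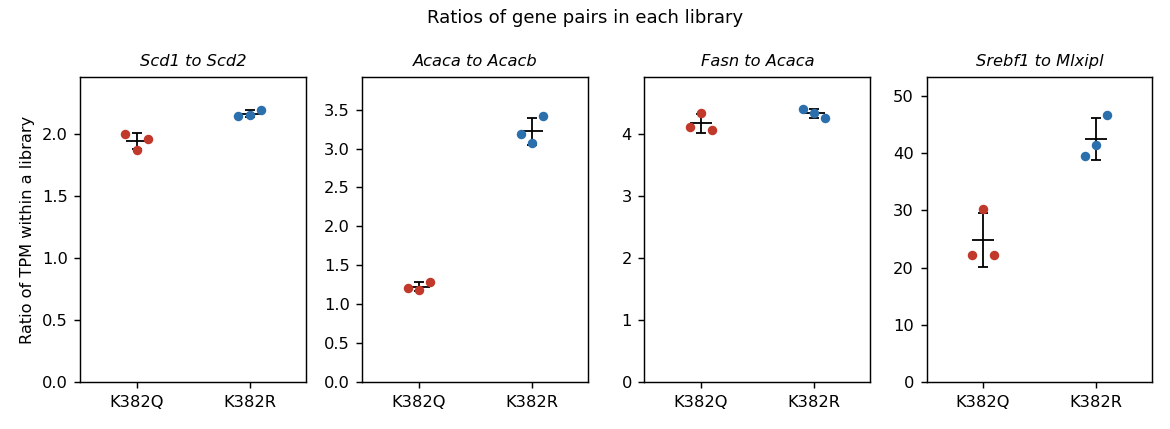
Ratio of TPM of 4 gene pairs within each library, with black bars for the mean ± SD of 3 libraries per group and axes that start at 0. The *Acaca* to *Acacb* and *Srebf1* to *Mlxipl* ratios are lower in all K382Q libraries, the *Scd1* to *Scd2* ratio differs by a small step without overlap, and the *Fasn* to *Acaca* ratios overlap.

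The promoters were described because enzymes of 1 pathway had moved in opposite directions. RefSeq promoter windows (from GRCm38.p6) matched 8 of the 10 members, with 12 start sites. *Scd1* and *Scd2* had no entry. Each window of 250 bases before the start was found once, without mismatch, in GRCm39, whose coordinates are given. The windows of *Fasn* and *Acly*, which were lower in TPM, and of *Acacb* and the upstream start of *Mlxipl*, which were higher, are printed 5′ to 3′ on the strand of the gene, with motif matches in capitals. They lie at chr11:120715374-120715623 (*Fasn*, minus strand), chr11:100418827-100419076 (*Acly*, minus strand), chr5:114303329-114303578 (*Acacb*, plus strand) and chr5:135118494-135118743 (*Mlxipl*, plus strand). The last 29 bases of the *Fasn* window and the last 9 of the *Acacb* window lie in an exon of GENCODE M39, and the *Acacb* start is inside the gene as the tables delimit it.
Fasn: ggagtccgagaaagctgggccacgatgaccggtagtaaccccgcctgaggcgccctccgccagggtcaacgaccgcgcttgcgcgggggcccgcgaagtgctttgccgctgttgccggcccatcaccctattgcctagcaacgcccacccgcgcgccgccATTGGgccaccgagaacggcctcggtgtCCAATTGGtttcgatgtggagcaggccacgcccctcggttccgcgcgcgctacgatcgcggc
Acly: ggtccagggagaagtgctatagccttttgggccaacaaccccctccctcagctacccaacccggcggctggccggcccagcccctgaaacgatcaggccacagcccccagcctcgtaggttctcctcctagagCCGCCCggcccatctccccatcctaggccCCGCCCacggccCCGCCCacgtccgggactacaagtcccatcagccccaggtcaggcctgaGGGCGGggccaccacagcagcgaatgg
Acacb: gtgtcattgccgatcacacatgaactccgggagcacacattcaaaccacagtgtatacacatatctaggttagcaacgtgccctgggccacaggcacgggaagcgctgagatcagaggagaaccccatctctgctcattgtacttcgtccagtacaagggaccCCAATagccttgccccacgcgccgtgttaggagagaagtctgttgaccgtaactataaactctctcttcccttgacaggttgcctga
Mlxipl: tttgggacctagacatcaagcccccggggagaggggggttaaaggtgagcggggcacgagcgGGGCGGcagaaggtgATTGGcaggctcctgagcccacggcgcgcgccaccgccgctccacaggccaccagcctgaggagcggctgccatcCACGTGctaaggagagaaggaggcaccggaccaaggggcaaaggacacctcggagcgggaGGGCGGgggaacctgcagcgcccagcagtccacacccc

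The motifs searched on both strands were the E-box CACGTG, bound by USF and related in sequence to the elements of ChREBP, the core TCACNCCAC of a sterol response element (SRE), the CCAAT box bound by NF-Y, the GC box GGGCGG bound by SP1, and the direct repeat 1 of nuclear receptors such as PPARγ with RXR. The CCAAT box occurred in 33.8% and the GC box in 32.7% of the 32851 promoter windows of that length. The E-box occurred in 6.02%, the SRE core in 1.05% and the direct repeat 1 in 0.0335%. *Fasn* had 3 CCAAT boxes, at -90 to -86, -62 to -58 and -59 to -55 from the start, of which the last 2 overlap on opposite strands. *Acly* had 4 GC boxes, between -117 and -22. *Acacb* had 1 CCAAT box, at -87 to -83, and *Thrsp* had 2, at -79 to -75 and -52 to -48, in a window of which 180 bases lie in the first exon of GENCODE M39. The E-box was found only in the upstream window of *Mlxipl* among the 12, at -98 to -93, and the SRE core only in its downstream window, at -136 to -128. No match to the direct repeat 1 was present in the 12 windows, which says only that these letters were not there. A CCAAT box lay in 7 of the 12 windows, those of higher members and of *Fasn* and *Srebf1* among them. The windows of *Fasn* and *Acly* shared no motif, and that of *Acaca* had no match, so a motif common to all 3 lower members was not possible. The only *Acaca* window lies inside the gene as the tables delimit it, and the sequence upstream of that gene was not searched.

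**Figure D4:**
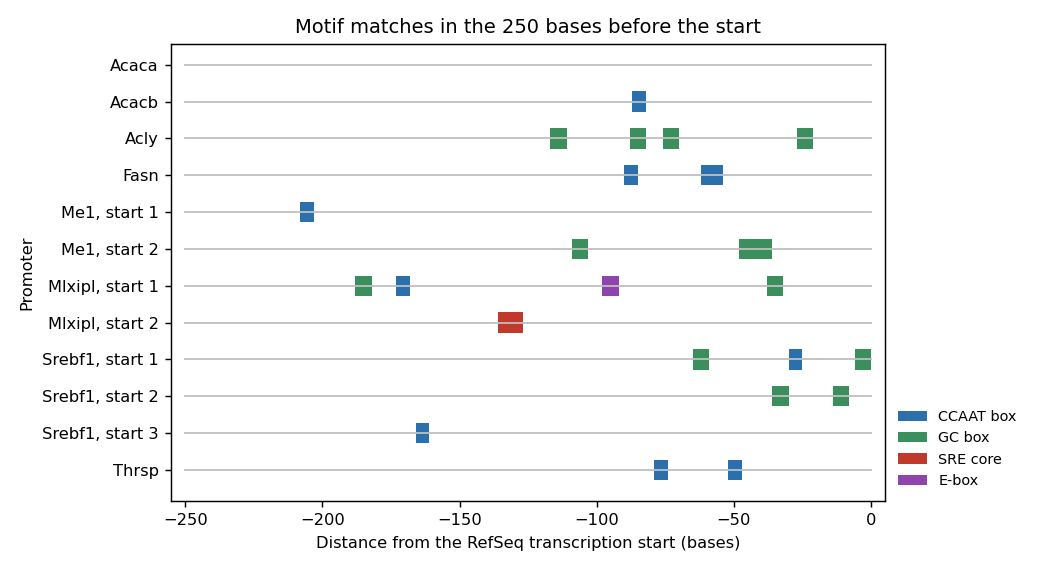
Motif matches (coloured boxes) in the 250 bases before each of 12 RefSeq start sites of 8 lipogenic genes, with the distance from the start in bases on the x axis. *Fasn*, *Thrsp*, *Acacb* and start 1 of *Srebf1* have CCAAT boxes within 90 bases of the start. *Acly* has 4 GC boxes, and *Acaca* has no match in its window.

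Genes that feed the pathway were mixed. Of 17 tested genes for acetyl-CoA and NADPH supply, 9 were higher, 4 lower and 4 not called, with a median log2 fold change of 0.14 beside -0.14 over all tested genes, of which 11.1% were called higher and 36.9% lower. With median-ratio scaling 12 were higher and 1 lower, beside 3064 and 3148 of all 15421 genes. *Acss2*, which makes cytosolic acetyl-CoA from acetate, was at 171 ± 3.70 TPM in K382Q and 73.2 ± 3.83 TPM in K382R. Its 3 libraries of K382Q were all above those of K382R, with a log2 fold change of 1.22 (SE 0.0431, limma adjusted p-value 1.1e-06). *Slc25a1*, the mitochondrial carrier that exports the citrate used by *Acly*, was at 203 ± 10.7 and 225 ± 7.84 TPM. Its log2 fold change of -0.14 passed limma (adjusted p-value 0.0317) but was 0.01 with median-ratio scaling (adjusted p-value 0.919). The gene of the acetate route was thus higher in K382Q, whereas the call of the citrate carrier as lower depended on the scaling.

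Of 18 tested enzymes next to *Fasn* and the desaturases, 7 were higher and 7 lower, with a median log2 fold change of 0.01 (9 higher and 4 lower with median-ratio scaling). Of all tested genes, 11.1% were higher and 36.9% lower (3064 and 3148 of 15421 genes with median-ratio scaling). *Scd3*, another desaturase of the chromosome 19 cluster, rose from 22.1 ± 1.61 to 59.2 ± 1.77 TPM, a log2 fold change of 1.40 (limma adjusted p-value 2.09e-06). *Elovl3*, an elongase of very long saturated chains that is induced in brown fat by cold, rose from 129.9 ± 0.700 to 279 ± 5.98 TPM (log2 fold change 1.10, limma adjusted p-value 2.93e-07). *Elovl6*, which elongates palmitate, the product of *Fasn*, fell from 15.4 ± 0.871 to 10.8 ± 1.06 TPM. *Elovl6* had a log2 fold change of -0.50 (limma adjusted p-value 0.00194), and it was called lower under the 3 other scalings too (FPKM, quantiles and median ratios). *Acsl3*, an acyl-CoA synthetase of lipid droplets, rose from 69.2 ± 3.72 to 105 ± 4.52 TPM (log2 fold change 0.60, limma adjusted p-value 5.3e-05).

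Genes that process or accompany SREBP were 2 higher, 9 lower and 10 not called of 21 tested. Their median log2 fold change was -0.13, close to that of all tested genes, of which 11.1% were called higher and 36.9% lower. With median-ratio scaling the list turned to 8 higher and 3 lower. At that setting 3064 genes were higher and 3148 lower of all 15421 tested. *Srebf2*, the SREBP of cholesterol synthesis, was at 148 ± 2.65 and 154 ± 1.72 TPM (log2 fold change -0.06, limma adjusted p-value 0.136). With median-ratio scaling *Srebf2* turned higher and was called, at 0.09 (limma adjusted p-value 0.0362). *Scap*, which escorts SREBP to the Golgi, had a log2 fold change of -0.13 (limma adjusted p-value 0.0145), and 0.02 with median-ratio scaling. *Insig1*, the retention factor of the endoplasmic reticulum that is itself an SREBP target, was at 835 ± 29.3 TPM in K382Q and 744 ± 13.8 TPM in K382R. Its log2 fold change was 0.17 (limma adjusted p-value 0.00451). It was 0.32 with median-ratio scaling (adjusted p-value 0.000169) and 0.06 with quantile normalization (adjusted p-value 0.335). *Nr1h3*, which encodes LXRα, an activator of *Srebf1*, did not pass the test at 43.1 ± 4.56 and 48.9 ± 2.86 TPM (log2 fold change -0.18, limma adjusted p-value 0.0983). The log2 fold change of *Nr1h3* was -0.03 with median-ratio scaling (limma adjusted p-value 0.804). *Pparg*, transgene and gene together, had a log2 fold change of -0.43 (limma adjusted p-value 0.000977) and was called lower under the 3 other scalings.

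The list of ChREBP partners and glucose input had 7 of 10 tested genes higher and 3 lower, with a median log2 fold change of 0.27. Of all tested genes, 11.1% were called higher and 36.9% lower. With median-ratio scaling 7 genes of the list were again called higher and none lower, beside 3064 and 3148 of all 15421 genes. *Slc2a4*, the insulin-responsive glucose transporter, rose from 20.1 ± 1.44 to 46.2 ± 2.50 TPM, a log2 fold change of 1.18 (limma adjusted p-value 6.93e-06). *Txnip*, a well-known ChREBP target that limits glucose uptake, rose from 1129 ± 8.19 to 2346 ± 43.4 TPM (log2 fold change 1.06, limma adjusted p-value 3.0e-07). *Slc2a1*, the basal glucose transporter, rose from 86.1 ± 0.728 to 158 ± 8.33 TPM (log2 fold change 0.87, limma adjusted p-value 3.8e-06). Both transporters and the *Txnip* gene were thus among the higher genes of the list. *Pgm1*, a phosphoglucomutase that links glycogen to glucose 6-phosphate, rose from 289 ± 2.72 to 434 ± 11.8 TPM (log2 fold change 0.59, limma adjusted p-value 4.51e-06). *Mlx*, the obligate partner of ChREBP, went from 71.0 ± 2.41 TPM in K382R to 61.6 ± 3.71 TPM in K382Q, a log2 fold change of -0.20 (limma adjusted p-value 0.0122) that was -0.05 with median-ratio scaling (adjusted p-value 0.414). *Pklr*, a liver target of ChREBP, was listed at 0 in all 6 libraries.

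Regulators of the lipogenic enzymes were 4 higher, 5 lower and 7 not called of 16 tested, with a median log2 fold change of -0.03 (6 higher and 2 lower with median-ratio scaling). The share called lower was thus near the 36.9% of all tested genes, of which 11.1% were called higher. Median-ratio scaling called 3064 of all 15421 genes higher and 3148 lower. *Trib3*, a pseudokinase that takes part in the degradation of acetyl-CoA carboxylase, rose from 121 ± 2.77 to 203 ± 9.54 TPM (log2 fold change 0.75, limma adjusted p-value 6.35e-06). *Mid1ip1*, the paralog of *Thrsp* whose protein promotes the polymerization of acetyl-CoA carboxylase, was at 69.5 ± 0.830 and 63.2 ± 1.27 TPM. The log2 fold change of *Mid1ip1* was 0.14 (limma adjusted p-value 0.0108), beside 2.33 for *Thrsp*, and the 2 paralogs thus differed in the size of their change. With median-ratio scaling the 2 values were 0.29 and 2.47.

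**Figure D5:**
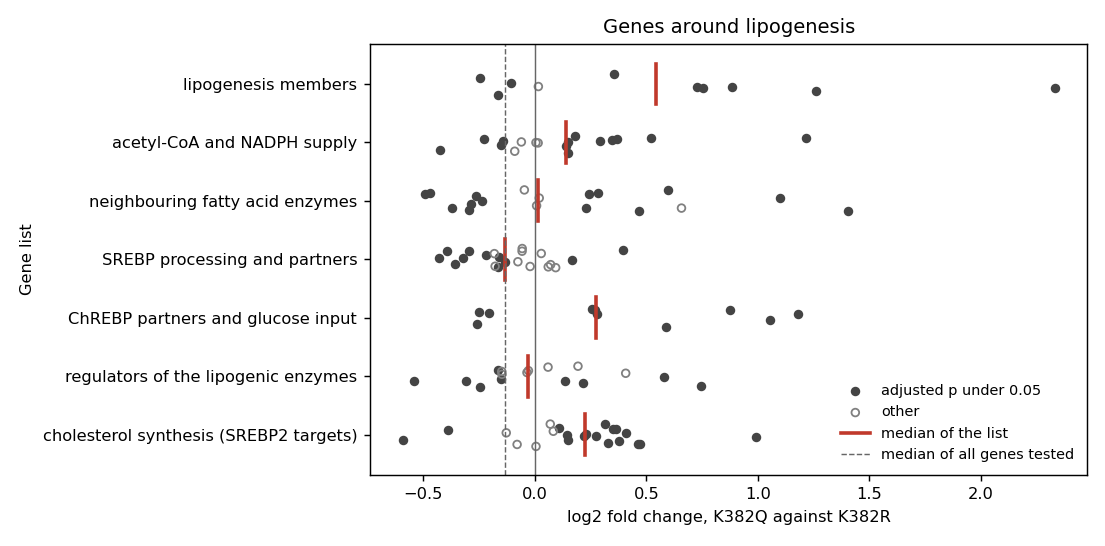
log2 fold change, K382Q against K382R, of each tested gene of the members and 6 neighbouring lists (filled points passed an adjusted p-value of 0.05, open points did not, vertical spread is for display), with a red bar for the median of each list. The members' median of 0.54 is the highest, that of the SREBP list, -0.13, lies near the median of all tested genes, -0.14 (dashed line), and a scaling by median ratios would move all points to the right.

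The genes whose pattern over the 6 libraries was most like that of *Srebf1*, among 10643 genes with a mean of at least 5 TPM, included *Usp49* and *Angptl4*. Library 2 of K382Q stood apart for *Srebf1*, at 267 TPM beside 245 to 251 TPM in the others, so likeness mostly holds that 1 library. The genes most like *Thrsp* were *Gm4654*, *Ldha* and *Fam162a*. The libraries of *Thrsp* fall into 2 separate groups, so that likeness mostly holds the difference between mutants. *Angptl4*, a PPAR target and an inhibitor of lipoprotein lipase, was at 1415 and 1399.8 TPM in the means of K382Q and K382R. *Ldha*, which encodes a subunit of lactate dehydrogenase, was at 2437 and 1837 TPM. The likeness was measured by Pearson's correlation of log2(TPM + 0.5) and is a description of these 6 libraries.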

How the data were processed

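RNA of 6 cultures, labelled as 3 biological replicates of each mutant, was analysed. Whether they were separate differentiations is not given in the sources used here, so that p-values measure the spread between these samples. According to the study's methods and processing notes, the authors aligned reads to GRCm39 with HISAT2 and made gene tables with StringTie. The release of the annotation is not given in the sources used here. The deposited coverage gives how many reads span a base of a gene on average. The deposited FPKM are scaled to the aligned bases of a library. The TPM deposited by the authors are shares of 1 fixed total, so that a rise of abundant genes lowers all others. The labels do not say that the libraries keep strand, so reads of overlapping genes may be mixed. Counts were not used here, and the precision is that of 3 libraries per group. Aligned bases were computed as coverage divided by FPKM over genes with 1 transcript in GENCODE M39, which held 99.0% of the gene IDs. At most 5 repeated gene IDs per library were summed.

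Genes with at least 0.5 TPM in at least 3 libraries were tested two-sided after the transformation log2(TPM + 0.5), in R 4.3.3 with limma 3.58.1, a variance trend over intensity and Benjamini-Hochberg adjustment. This scale understates the change of low genes. The fold change of 2 follows the study's thresholds. Ratios were tested by exact permutation over libraries. The script was tested on simulated data. Alternatives were other pseudocounts, filters and scalings, FPKM, no trend, array weights, a replicate block, the omission of each library and a fold change of 1.5. The alternatives with gene coverage were chosen after seeing the data. Members and lists were chosen with earlier results of these data known. Beyond the members, genes were named if called with a fold change over 1.5 (at most 6 per list), or as the pathway's main carriers, partners and regulators (*Slc25a1*, *Acss2*, *Elovl6*, *Srebf2*, *Scap*, *Insig1*, *Nr1h3*, *Mlx*, *Mid1ip1*, *Pparg*). Some genes that these rules select are not reported here. Figures used Python 3.11.15 and matplotlib 3.10.9.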

Additional observations from a re-analysis of the deposited data

How the results depend on the processing

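The 6 higher members were called higher, and *Acly* lower, in all 18 alternatives run for each gene. The count of lower members went from 3 to 1 with median-ratio scaling, with quantile normalization and with gene coverage plus median-ratio scaling. *Acaca* reversed under these, to 0.043, 0.063 and 0.025 on the log2 scale, and lost its call in 11 other alternatives (adjusted p-values over all its alternatives 0.0343 to 0.631). *Fasn* lost its call under the same 3, at -0.01, -0.07 and -0.02. Median ratios and quantiles brought the median of all tested genes from -0.14 to 0.0039 and -0.0048. Quantile normalization lowered the most abundant members instead, *Scd1* to 0.47 (adjusted p-value 0.000383) and *Scd2* to 0.74. *Srebf1* was called higher with median-ratio scaling (0.17) and with coverage plus median ratios (0.16), and without 1 library ranged from -0.024 (K382Q replicate 2 left out) to 0.037. The median log2 fold change of the members was 0.60 with FPKM, 0.69 with median ratios, 0.46 with quantiles, 0.48 with gene coverage, 0.62 with gene coverage plus median ratios, and 0.51 to 0.57 without 1 library. With a fold change over 1.5 in place of 2, 5 members passed. The share of all tested genes at that fold change is not given here, so this count has no background beside it. Each of the 4 ratios kept its direction in 8 alternatives. Samples of 1 number hardly deviated together (correlations -0.02, 0.05 and 0.02), and the replicate number was not used as a pairing in the main test. These correlations cannot show whether samples of 1 number were handled together, which the labels do not say. With a replicate block 8 members and 6987 genes were called, against 9 and 7415, and *Acaca* was lost (adjusted p-value 0.0744).

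Depth limited *Mlxipl* and, in K382R, *Thrsp*, whose coverage fell under 10 reads per base. Coverage of the whole gene gave 23.8% to 25.0% of the deposited TPM for *Acaca* and 25.6% to 27.1% for *Mlxipl*, but 98.6% to 98.7% for *Scd1*, so levels of different members are less certain than differences between mutants.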

Other observations

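Cholesterol synthesis, the other pathway under SREBP control, was higher in K382Q for most of its genes. Of 22 genes tested, 15 were higher, 2 lower and 5 not called by limma, with a median log2 fold change of 0.22 beside -0.14 over all tested genes, of which 11.1% were called higher and 36.9% lower. With median-ratio scaling 18 were higher and 2 lower, beside 3064 and 3148 of all 15421 genes. The following genes were named after their values were seen. *Lss*, lanosterol synthase, was at 170.1 ± 8.31 TPM in K382Q and 85.5 ± 5.89 TPM in K382R (SD, n = 3 each), a log2 fold change of 0.99 (limma adjusted p-value 9.02e-06). *Sqle*, the squalene epoxidase before it in the pathway, was at 231 ± 6.41 and 167 ± 3.98 TPM (log2 fold change 0.46, limma adjusted p-value 2.55e-05). *Dhcr7*, a reductase that acts at the end of the pathway, was lower in K382Q, at 29.1 ± 2.13 TPM beside 38.3 ± 1.75 TPM (log2 fold change -0.39, limma adjusted p-value 0.00148).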
